A study of Bos indicus with 6 samples.

Results

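The genes of cholesterol and fatty acid synthesis were examined in the isthmus of the cow oviduct, the narrow segment next to the uterus, on day 4 of the estrous cycle. The list held 34 gene symbols, and a gene was taken when the symbol in its row name equalled a listed one. This found 31 of the 24616 genes of the isthmus table, namely 20 of 22 sterol genes (16 enzymes and 4 regulators) and 11 of 12 fatty acid genes. MSMO1, SC5D and ELOVL6 were not found by symbol. Each of the 31 genes passed the filter on low values, and none was dropped. Of the sterol enzymes, HMGCS1, SQLE and CYP51A1 had SF/SCL means 2.56, 1.77 and 1.77 times the LF/LCL means. The HMGCS1 groups overlapped, since SF/SCL cow 489215 lay inside the LF/LCL range. Of the fatty acid genes, the desaturase FADS1 and the acyl-CoA synthetases ACSL3 and ACSL4 had LF/LCL means 2.15, 1.91 and 1.83 times the SF/SCL means. None passed an adjusted p of 0.05 in limma with 6 cows.

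The 6 animals were healthy multiparous Nelore (Bos indicus) cows, 3 in the group with a large follicle and large corpus luteum (LF/LCL) and 3 in the group with a small follicle and small corpus luteum (SF/SCL). All cows, both groups alike, were pre-synchronized with a prostaglandin F2 alpha analog (PGF) and a GnRH agonist. All then received an intravaginal device with 1 g of progesterone and 2 mg of estradiol benzoate on day -10, PGF at device removal and again 6 h later, and a GnRH agonist to induce ovulation. LF/LCL cows alone also received PGF on day -10, and their device was removed 42 h before the GnRH injection, against 30 h in SF/SCL cows. Each cow gave 1 library from the oviduct on the side of the corpus luteum, and cows are named here by number. The sequenced cows were those ranked highest in LF/LCL and lowest in SF/SCL for ovarian and hormonal measures, so the groups are the ends of a range and not random draws.

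Cholesterol is built in the cytosol and endoplasmic reticulum from acetyl-CoA, through mevalonate, farnesyl pyrophosphate, squalene and lanosterol. Fatty acids are built from the same acetyl-CoA by a carboxylase and a synthase, then lengthened, desaturated and joined to coenzyme A before use in membrane or storage lipids. SREBF2 mainly drives the sterol enzymes and SREBF1 the fatty acid enzymes, while SCAP escorts their proteins for activation and INSIG1 holds SCAP back when sterols are plentiful. In the oviduct, lipids form cell membranes and the lipid droplets of epithelial cells, and cholesterol is part of the secretions that bathe sperm and embryo.

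The libraries held 23899117 to 34193164 reads counted in genes, with a median of 27155932, which is fewer than were sequenced. Values are normalized counts, that is reads divided by a size factor for each library. A member was covered by 135 reads (SCD in cow 489215) to 24993 reads (HMGCS1 in cow 856), and 14 of the 186 member values rested on under 1000 reads, where counting error alone is over 3.16%. Cow 489215 stood apart from the other SF/SCL cows, with the smallest size factor of the 6 (0.751), the fewest genes with a read (16944, against 17348 to 17718) and the largest sum of normalized counts. That sum, over the 15387 genes tested, was 33743255, against 25207650 to 26801290 in the other 5 cows. Therefore results are given with and without it, the latter with 2 SF/SCL cows left. The tissue also differed in cell type markers. The summed smooth muscle markers (6 of 6 found) were 694207 to 814098 normalized counts in LF/LCL cows, 315210 in cow 856, 380675 in cow 97 and 1207464 in cow 489215. The summed ciliated markers (5 of 6 found, PIFO at 0 in every cow) were 8648 to 10613 in LF/LCL cows, 23406 and 25475 in cows 856 and 97, and 5359 in cow 489215. In cow 489215 not every marker followed these sums, with MYH11 (smooth muscle) below and DNAI1 (ciliated) above every LF/LCL cow. Secretory and general epithelial markers (5 of 6 found) summed to 22111 to 28418 in LF/LCL cows, 306856 and 365960 in cows 856 and 97, and 41660 in cow 489215, most of the excess in cows 856 and 97 being OVGP1. Of that list, EPCAM, KRT8 and KRT18, markers of epithelium in general, were higher in all 3 SF/SCL cows without overlap. Their SF/SCL means were 1.79, 1.67 and 1.45 times the LF/LCL means (limma p 0.00649, 0.0101 and 0.0447, adjusted p 0.398, 0.412 and 0.562), and EPCAM and KRT8 were highest in cow 489215. The ratios stand beside 1.77 for SQLE and CYP51A1. PAX8 and OVGP1, the other markers found of that list, were not higher in all 3 SF/SCL cows. PAX8 was 469 in cow 489215, below the 503.1 to 662.5 of LF/LCL cows, and 1441 and 1437 in cows 856 and 97. OVGP1 was 730 in cow 489215, inside the LF/LCL range of 287 to 1950. In tissue RNA, fewer cells of a type and less RNA per cell cannot be told apart, and the part of cell makeup in the values below was not tested.

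The sterol genes lay mostly above 0 and the fatty acid genes mostly below 0 in the comparison of SF/SCL with LF/LCL cows. The log2 fold change (SF/SCL minus LF/LCL, on log2(value + 1)) was above 0 in 15 of 20 sterol genes, with a median of 0.18. It was below 0 in 9 of 11 fatty acid genes, with a median of -0.57. Over all 15387 genes tested the median was -0.02, and 48.6% were above 0. Without cow 489215 the medians were 0.08 and -0.35, beside -0.00092 over all genes.

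By limma with Benjamini-Hochberg adjustment, 0 of 31 members had an adjusted p under 0.05, as did 0.0% of all genes. DESeq2 on the recovered reads called 1 of 31 members (ACSL3) and 416 of the 15387 genes tested, and edgeR called 0 of either. At an unadjusted limma p under 0.05, 3 of 20 sterol genes were higher in SF/SCL cows (SQLE, CYP51A1, INSIG1) and 0 lower, against 4.19% and 4.48% of all genes. Among the 11 fatty acid genes 0 were higher and 3 were lower (FADS1, ACSL3, ACSL4). These counts leaned on single cows. Counted in either direction, the sterol count was 0 without cow 527, and the fatty acid count was 1 without cow 617 or cow 79. Without cow 489215 they were 7 (TM7SF2 lower, the rest higher) and 5 (all lower). That last fit gave low p-values to more genes in all, with 10.3% higher and 7.92% lower at an adjusted limma p under 0.05. The share of all genes at an unadjusted p was not computed for it.

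The SF/SCL values lay above every LF/LCL value in 4 of 20 sterol genes (SQLE, CYP51A1, HSD17B7, INSIG1), where 9.51% of all genes did. They lay below every LF/LCL value in 0 sterol genes and in 4 of 11 fatty acid genes (FASN, FADS1, ACSL3, ACSL4), where 8.6% of all genes did. With cow 489215 left out, 7 sterol genes lay above and 2 below, and 0 fatty acid genes lay above and 6 below, against 26.9% and 25.0% of all genes.

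Without cow 489215, limma gave an adjusted p under 0.05 to 2 sterol genes higher in SF/SCL cows (HMGCS1, CYP51A1) and 1 lower (TM7SF2), beside 10.3% and 7.92% of 15495 genes. The sterol counts were thus close to the share of all genes. It gave 0 fatty acid genes higher and 3 lower (ELOVL5, ACSL3, ACSL4). Over the 18 alternatives tried, the adjusted p of every member reached at least 0.999, in the limma fit without cow 527. Where the lowest adjusted p over alternatives is given below, it came from DESeq2 without cow 489215, except for ELOVL5. That DESeq2 fit was added after seeing the data, had 2 SF/SCL cows and called 3938 of 15495 genes.

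**Figure D1:**
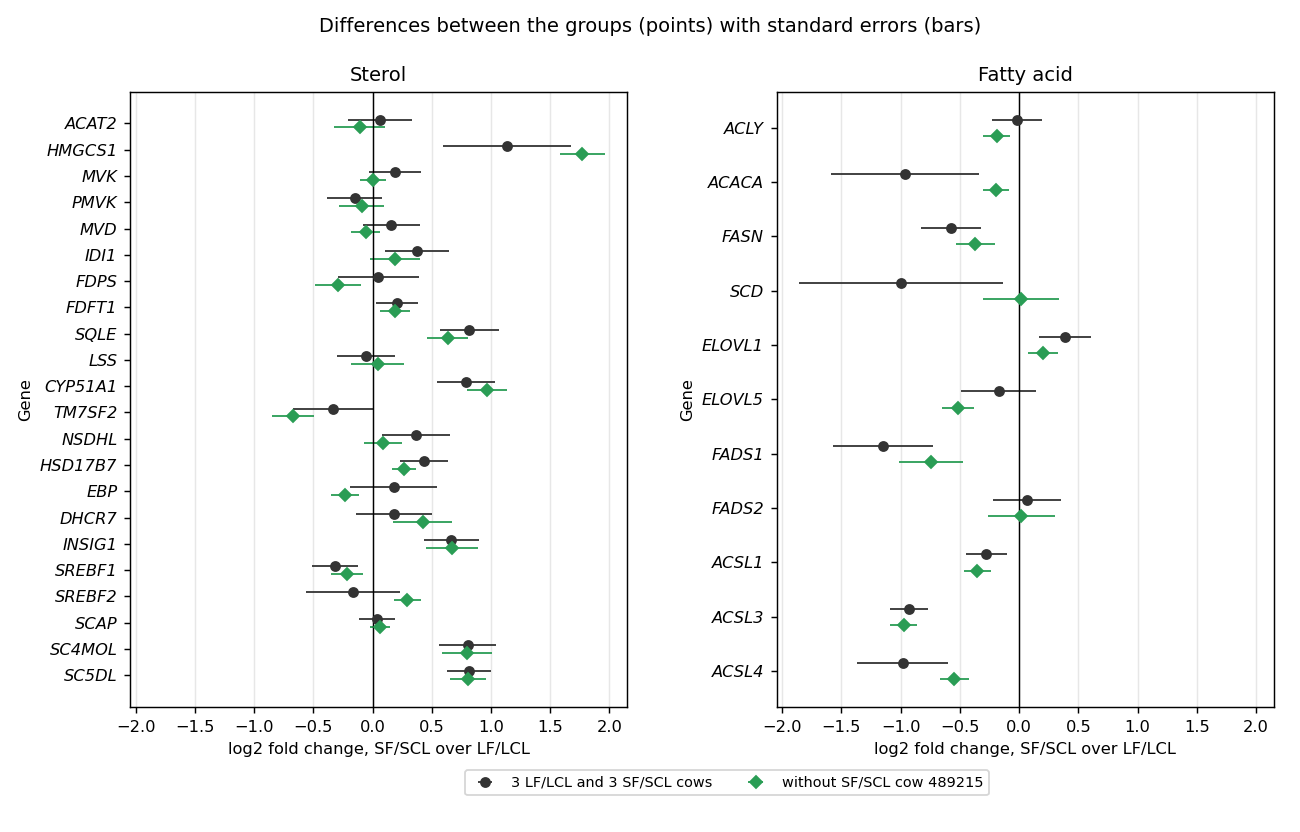
Log2 fold change of SF/SCL over LF/LCL (x axis, log2 units) for each gene (y axis), sterol genes in the left panel and fatty acid genes in the right, with standard errors as bars. Black circles use all 6 cows and green diamonds leave out cow 489215. HMGCS1 moves from 1.14 to 1.77 and SCD from -0.998 to 0.02 between them, while ACSL3 stays at -0.93 and -0.97.

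The enzymes at the head of the pathway held the sterol gene with the largest difference with 6 cows, HMGCS1. HMGCS1 (ENSBTAG00000011839), which joins acetyl-CoA to acetoacetyl-CoA, had 5755, 5624 and 3929 normalized counts in LF/LCL cows 617, 79 and 527. It had 18984 and 15516 in SF/SCL cows 856 and 97 and 4611 in cow 489215. Cows 856 and 97 thus lay far above every LF/LCL cow, and cow 489215 lay inside the LF/LCL range. HMGCS1 had a log2 fold change of 1.14 (SE 0.54, n = 3 and 3, limma adjusted p 0.639). Without cow 489215 it was 1.77 (SE 0.19, limma adjusted p 0.00353, the lowest over alternatives being 1.106e-15 by DESeq2 without that cow), a ratio of means of 3.38. Cows 856 and 97 also had the high ciliated, OVGP1 and PAX8 values given above, whereas EPCAM, KRT8 and KRT18 were higher in all 3 SF/SCL cows.

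ACAT2, which makes acetoacetyl-CoA, ranged from 1279 to 2334 normalized counts with overlapping groups (log2 fold change 0.07, limma adjusted p 0.963). The next enzymes carry mevalonate to farnesyl pyrophosphate. MVK, PMVK and MVD, which phosphorylate and decarboxylate mevalonate, had log2 fold changes of 0.19, -0.15 and 0.16. IDI1, which isomerizes the isoprenoid unit, and FDPS, which builds farnesyl pyrophosphate, had 0.37 and 0.05. None of these 5 had an unadjusted limma p under 0.05, and their groups overlapped. Cow 489215 had the highest value of the 6 cows in MVK (1949), MVD (2005), IDI1 (5995) and FDPS (6115), but not in PMVK (403).

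Squalene epoxidase led the middle of the pathway. SQLE (ENSBTAG00000005498), which puts oxygen on squalene and is a control point of the pathway, had 5332, 5230 and 3733 normalized counts in cows 617, 79 and 527. It had 7847, 10705 and 6794 in cows 856, 489215 and 97. Every SF/SCL cow lay above every LF/LCL cow, and cow 489215 was the highest. The limma fit gave a log2 fold change of 0.82 (SE 0.25, limma p 0.0147, adjusted p 0.437), and 0.63 without cow 489215 (SE 0.17, limma adjusted p 0.0507, the lowest over alternatives being 0.0084 by DESeq2 without that cow). FDFT1, which makes squalene, ranged from 7075 to 9669 (log2 fold change 0.20), and LSS, which folds the epoxide made by SQLE into lanosterol, from 2359 to 4024 (-0.05).

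CYP51A1 (ENSBTAG00000001992) opens the series of steps after lanosterol by removing a methyl group. It had 3728, 4217 and 3532 normalized counts in LF/LCL cows 617, 79 and 527, and 8993, 5124 and 6208 in SF/SCL cows 856, 489215 and 97. The groups did not overlap, and cow 489215 was the closest of its group to the LF/LCL cows. On the log2 scale the difference was 0.79 (SE 0.24, limma p 0.0157, adjusted p 0.444). Without cow 489215 it was 0.97 (SE 0.17, limma adjusted p 0.0139, the lowest over alternatives being 4.898e-06 by DESeq2 without that cow).

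TM7SF2 (ENSBTAG00000005069), a sterol reductase of the next step, went the other way in 2 SF/SCL cows. It had 1235, 1282 and 904 normalized counts in cows 617, 79 and 527, then 662 and 759 in cows 856 and 97, and 1426 in cow 489215, the highest of all. The groups overlapped through cow 489215. The log2 fold change was -0.33 (SE 0.34, limma adjusted p 0.861), and -0.67 without that cow (SE 0.18, limma adjusted p 0.0466, the lowest over alternatives being 0.00547).

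The remaining late enzymes gave no unadjusted limma p under 0.05. HSD17B7, a keto-reductase of the demethylation steps, had non-overlapping groups, at 2300 to 2711 in LF/LCL cows and 2970 to 4307 in SF/SCL cows (log2 fold change 0.44, SE 0.20, limma p 0.0699, adjusted p 0.628). NSDHL, the dehydrogenase of the same steps, had 0.37, and EBP, which shifts a double bond, had 0.18. DHCR7, the reductase that yields cholesterol, had 0.18. Cow 489215 was again highest in NSDHL (4441), HSD17B7 (4307) and EBP (2084), and in DHCR7 (1098) it was below all but cow 527.

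**Figure D2:**
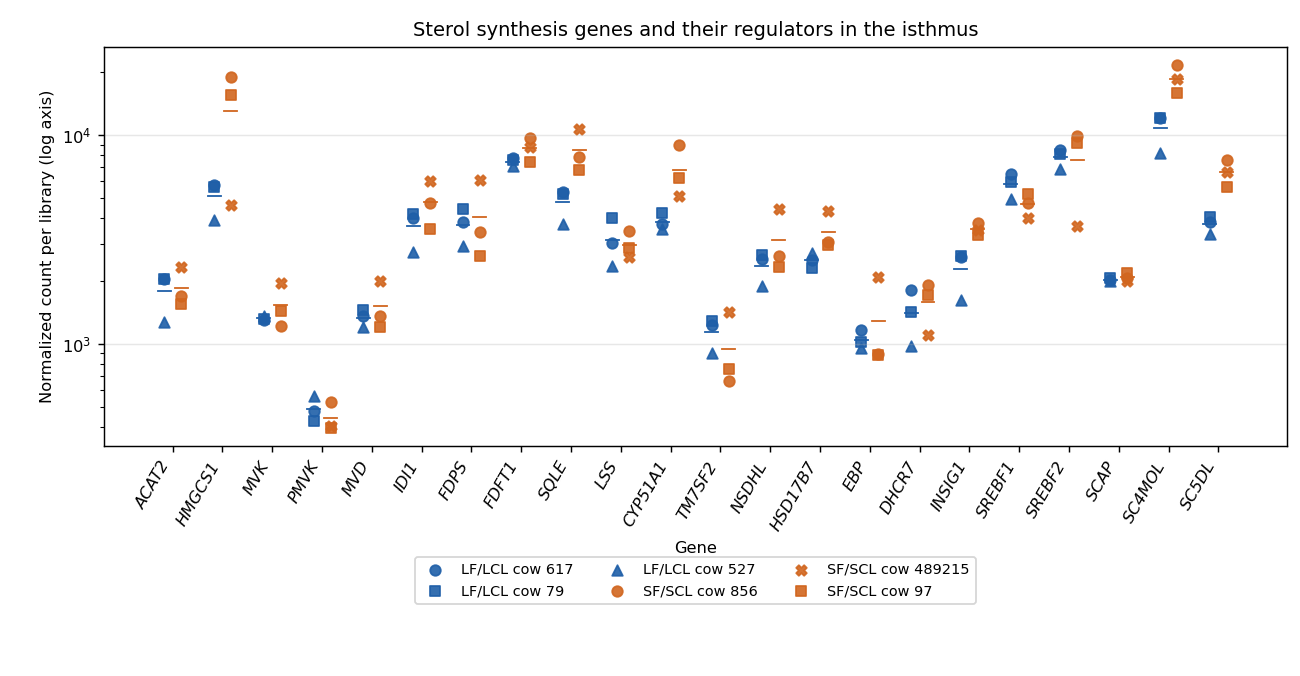
Normalized count per library (y axis, log scale) of each sterol gene (x axis), enzymes in pathway order, then the 4 regulators, then SC4MOL and SC5DL, the older names of MSMO1 and SC5D. Each point is 1 cow, blue for LF/LCL and orange for SF/SCL with a cross for cow 489215, and short lines are group means. SQLE, CYP51A1, HSD17B7, INSIG1, SC4MOL and SC5DL show no overlap, and the cross is the highest point in 10 of the 16 enzymes.

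The table held rows under the older names of 2 members that the rule did not find, and their values are given apart from the member counts. SC4MOL (ENSBTAG00000003068, MSMO1, the oxidase that removes methyl groups after CYP51A1) had 12065, 12007 and 8213 normalized counts in cows 617, 79 and 527. It had 21516, 18509 and 15847 in cows 856, 489215 and 97. The groups did not overlap, and the log2 fold change was 0.80 (SE 0.24, limma p 0.0131, adjusted p 0.430). It was 0.80 without cow 489215 as well (limma adjusted p 0.0457, the lowest over alternatives being 0.00265).

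SC5DL (ENSBTAG00000019246, SC5D, the desaturase just before DHCR7) had 3840, 4071 and 3341 in LF/LCL cows 617, 79 and 527. It had 7592, 6638 and 5612 in SF/SCL cows 856, 489215 and 97, again without overlap. SC5DL had a log2 fold change of 0.81 (SE 0.19, limma p 0.00387, adjusted p 0.381), and DESeq2 with 6 cows gave an adjusted p of 0.013. Without cow 489215 it was 0.80 (SE 0.15, limma adjusted p 0.0182). For these 2 genes all 3 SF/SCL cows, 489215 included, lay on the same side, as they did for EPCAM, KRT8 and KRT18. For PAX8 and OVGP1 they did not. The part of epithelial content in SC4MOL and SC5DL was not tested.

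Among the regulators, only INSIG1 had an unadjusted limma p under 0.05. INSIG1 (ENSBTAG00000001592), the sterol-sensing brake and itself a target of SREBF proteins, had 2599, 2639 and 1628 normalized counts in cows 617, 79 and 527. It had 3788, 3515 and 3336 in cows 856, 489215 and 97, so the SF/SCL cows were close together and all above the LF/LCL cows. The limma fit gave a log2 fold change of 0.66 (SE 0.23, limma p 0.0263, adjusted p 0.491). Without cow 489215 it was 0.67 (SE 0.22, limma adjusted p 0.0844, the lowest over alternatives being 0.0293).

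SREBF2 (ENSBTAG00000014265), the main driver of sterol genes, had 8429, 8138 and 6837 normalized counts in LF/LCL cows 617, 79 and 527. It had 9849 and 9198 in cows 856 and 97 and 3661 in cow 489215, less than in any other cow. The direction of the difference therefore turned on that cow, with a log2 fold change of -0.17 (SE 0.40, limma adjusted p 0.937) and of 0.29 without it (SE 0.12, limma adjusted p 0.129).

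SREBF1 (ENSBTAG00000007884), the driver of fatty acid genes, had 6495, 5982 and 4933 in cows 617, 79 and 527, and 4734, 4021 and 5227 in cows 856, 489215 and 97. The groups overlapped, since cow 97 lay above cow 527 (log2 fold change -0.32, SE 0.19, limma adjusted p 0.742). SCAP (ENSBTAG00000015782), the escort protein, varied least of all members within each group, with 2031, 2058 and 2006 in LF/LCL cows and 2061, 2000 and 2191 in cows 856, 489215 and 97. Its log2 fold change was 0.04 (SE 0.15, limma adjusted p 0.963).

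The fatty acid genes began with 3 enzymes of the core pathway, of which none had an unadjusted limma p under 0.05. ACLY, which makes cytosolic acetyl-CoA from citrate, ranged from 4314 to 6360 normalized counts with overlapping groups (log2 fold change -0.02). ACACA (ENSBTAG00000017567), the carboxylase that commits acetyl-CoA to fatty acids, had 2213, 2294 and 1952 in cows 617, 79 and 527. It had 1978 and 1780 in cows 856 and 97 and 378 in cow 489215. That single cow held 0.185 times the mean of the other 5, and the log2 fold change was -0.96 with it (SE 0.63, limma adjusted p 0.762) and -0.19 without it (SE 0.11, limma adjusted p 0.261).

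FASN (ENSBTAG00000015980), the fatty acid synthase, had 7306, 8196 and 5569 normalized counts in LF/LCL cows 617, 79 and 527. It had 5279, 3521 and 5445 in cows 856, 489215 and 97. The SF/SCL cows lay below the LF/LCL cows without overlap, though cow 97 was just under cow 527. On the log2 scale the difference was -0.57 (SE 0.25, limma p 0.0592, adjusted p 0.606), and -0.37 without cow 489215 (SE 0.16, limma adjusted p 0.169).

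Desaturases and elongases differed among themselves. SCD (ENSBTAG00000045728), which makes monounsaturated fatty acids, had 1575, 2143 and 949 normalized counts in cows 617, 79 and 527. It had 1663 and 1338 in cows 856 and 97, inside the LF/LCL range, and 180 in cow 489215. The log2 fold change was -0.998 (SE 0.86, limma adjusted p 0.838) and 0.02 without that cow (SE 0.32, limma adjusted p 0.976), so the difference came from 1 library. FADS1 (ENSBTAG00000022294), a desaturase of polyunsaturated fatty acids, had 2787, 2934 and 1560 in cows 617, 79 and 527, and 1404, 595 and 1392 in cows 856, 489215 and 97.

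The FADS1 groups did not overlap, but cow 527 lay nearer to the SF/SCL cows than to its own group. FADS1 had a log2 fold change of -1.15 (SE 0.42, limma p 0.0317, adjusted p 0.507). It was -0.74 without cow 489215 (SE 0.27, limma adjusted p 0.108, the lowest over alternatives being 0.0163). FADS2, the desaturase of an earlier step in the same route, ranged from 3388 (cow 527) to 6455 (cow 79) with overlapping groups (log2 fold change 0.07).

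ELOVL5 (ENSBTAG00000003359), an elongase of polyunsaturated fatty acids, had 4030, 4454 and 3657 normalized counts in LF/LCL cows 617, 79 and 527. It had 3142 and 2531 in cows 856 and 97 and 5751 in cow 489215. Cow 489215 was the highest of the 6 and cows 856 and 97 the lowest. The limma fit gave a log2 fold change of -0.17 (SE 0.32, limma adjusted p 0.915) and -0.52 without cow 489215 (SE 0.13, limma adjusted p 0.0418, the lowest over alternatives being 0.0054). ELOVL1, an elongase of very long chains, ranged from 1662 to 3198 and was highest in cow 489215 (log2 fold change 0.38).

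Acyl-CoA synthetases, which activate long-chain fatty acids, differed between the groups without overlap at 2 of the 3 genes. ACSL3 (ENSBTAG00000017258), found on the endoplasmic reticulum and lipid droplets, had 4456, 4889 and 3923 normalized counts in cows 617, 79 and 527. It had 2279, 2456 and 2207 in cows 856, 489215 and 97. All 3 SF/SCL cows lay close together and far below the LF/LCL cows, and the LF/LCL mean was 1.91 times the SF/SCL mean. On the log2 scale the difference was -0.93 (SE 0.16, limma p 0.000915, adjusted p 0.351).

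Without cow 489215 the ACSL3 value was -0.97 (SE 0.11, limma adjusted p 0.0042). DESeq2 with all 6 cows gave ACSL3 an adjusted p of 0.000143, and the lowest over alternatives was 7.391e-11 by DESeq2 without cow 489215. Leaving out any other cow gave log2 fold changes of -1.01 to -0.85. No fit with 1 of those 5 cows left out gave any gene of the table an adjusted limma p under 0.05.

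ACSL4 (ENSBTAG00000018986), which prefers arachidonic acid, had 2980, 3058 and 2437 normalized counts in cows 617, 79 and 527, and 1960, 775 and 1886 in cows 856, 489215 and 97. The groups did not overlap, and cow 489215 was the lowest by a wide margin. The log2 fold change was -0.98 (SE 0.38, limma p 0.0386, adjusted p 0.538). It was -0.55 without that cow (SE 0.12, limma adjusted p 0.0277, the lowest over alternatives being 0.00147). ACSL1, a synthetase of liver, fat and muscle, ranged from 1487 to 2090 with overlapping groups (log2 fold change -0.28, limma adjusted p 0.753).

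**Figure D3:**
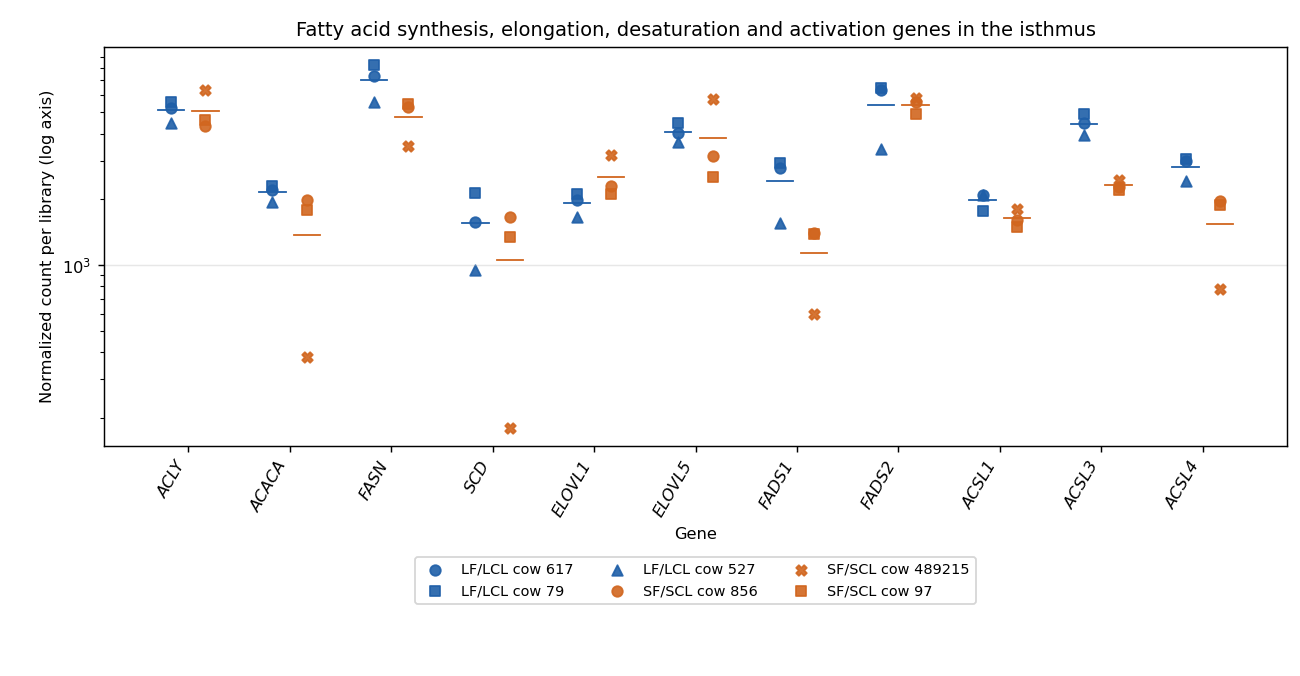
Normalized count per library (y axis, log scale) of each fatty acid gene (x axis). Each point is 1 cow, blue for LF/LCL and orange for SF/SCL with a cross for cow 489215, and short lines are group means. The 3 SF/SCL cows sit at 2207 to 2456 in ACSL3, below all LF/LCL cows, while the cross falls to 378 in ACACA and 180 in SCD.

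Cow 489215 differed from the other SF/SCL cows in both directions within these pathways. It had the highest value of the 6 cows in 10 of 16 sterol enzymes, 0 of 4 regulators and 3 of 11 fatty acid genes, where it was highest in 36.7% of all genes. It had the lowest in 0 sterol enzymes, 3 regulators (SREBF1, SREBF2, SCAP) and 5 fatty acid genes, where it was lowest in 35.7% of all genes. Relative to the mean of the other 5 cows its sterol genes ran from 0.431 (SREBF2) to 2.12 (EBP), and its fatty acid genes from 0.117 (SCD) to 1.61 (ELOVL5). This cow also had the highest smooth muscle marker sum and the lowest ciliated marker sum of the 6. Not every marker followed its sum. MYH11, of the smooth muscle list, was 116653 in this cow against 137623 to 191119 in LF/LCL cows. DNAI1, of the ciliated list, was 783 against 475 to 588. The part of cell makeup in this cow's values was not tested.

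Cow 527 lay below the other LF/LCL cows in most members, a pattern chosen after its values were seen. It was the lowest LF/LCL cow in 17 of 20 sterol genes and 10 of 11 fatty acid genes, against 36.2% of all genes. Its median ratio to the mean of cows 617 and 79 was 0.76 over sterol genes (0.602 in DHCR7 to 1.25 in PMVK) and 0.81 over fatty acid genes (0.51 in SCD to 1.08 in ACSL1). Over all genes tested the median ratio was 0.996. Several of its marker sums lay at the edge of the LF/LCL range. They were lowest for smooth muscle (694207), ciliated cells (8648) and secretory and general epithelium (22111), and highest for fibroblasts (96594). Not every marker followed its sum. MYH11 and SMTN (smooth muscle), DNAH5 (ciliated) and OVGP1 (secretory) were highest of the LF/LCL cows in cow 527. MYH11 was 191119 there, against 157535 and 137623 in cows 617 and 79. Of the fibroblast list, LUM was not highest in cow 527. EPCAM was 8530 in cow 527 against 12286 and 9925 in cows 617 and 79. KRT8 was lowest there too, but KRT18 was not. The part of cell makeup in these ratios was not tested.

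The summed normalized counts of the 16 sterol enzymes were 47897, 49171 and 38169 in cows 617, 79 and 527, and 71107, 63961 and 58314 in cows 856, 489215 and 97. The 11 fatty acid genes summed to 41002, 43889 and 31648 in cows 617, 79 and 527, and to 31497, 30817 and 29701 in cows 856, 489215 and 97. The sterol sums were higher in every SF/SCL cow, with HMGCS1 a large share in cows 856 and 97 alone. The fatty acid sums were lower in every SF/SCL cow, though cow 527 was just above them. The spread within a group, as the median coefficient of variation, was 15.7% in LF/LCL and 25.0% in SF/SCL cows for sterol genes, and 12.0% and 22.9% for fatty acid genes. Over all genes tested it was 12.0% and 36.6%.

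**Figure D4:**
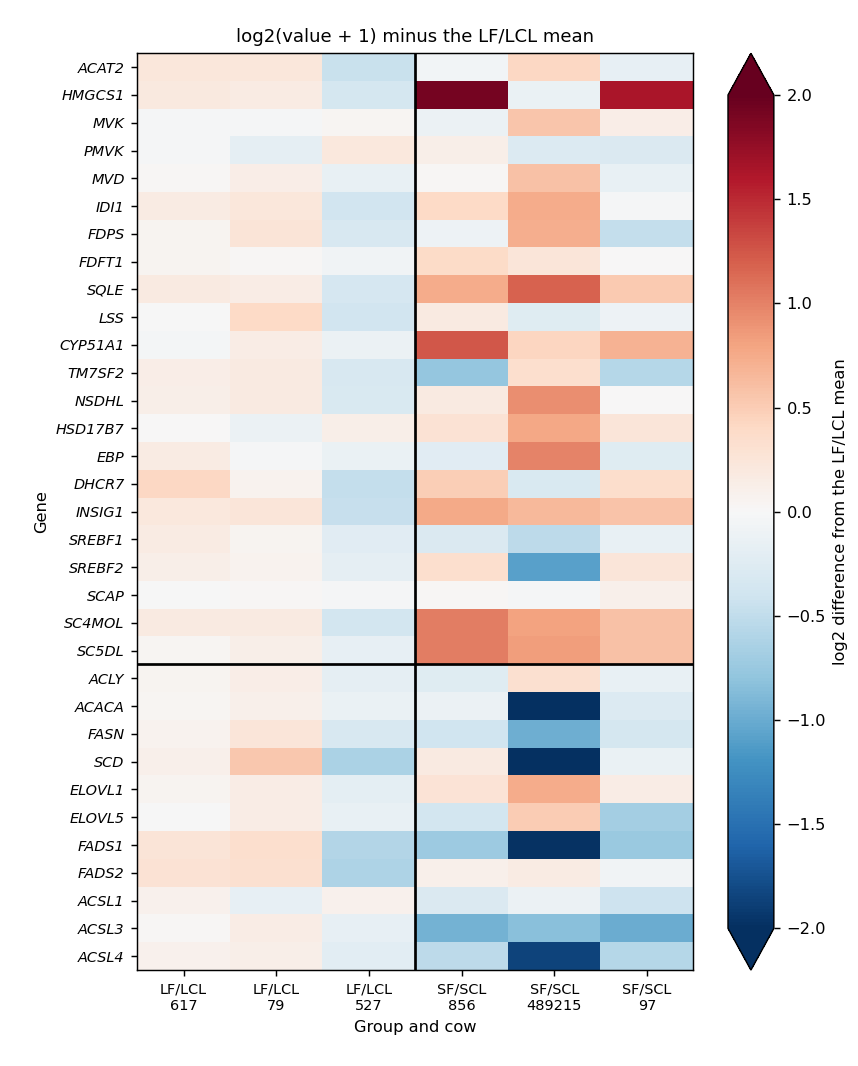
Difference of log2(value + 1) from the LF/LCL mean (colour, log2 units, red higher and blue lower, ends of the scale at 2 units) for each gene (y axis) in each cow (x axis), sterol genes above the line and fatty acid genes below. Cow 527 is pale blue in most genes, and cow 489215 is red in most sterol enzymes and dark blue in ACACA, SCD, FADS1 and ACSL4.

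Other genes of the pathways were taken from fixed lists. Of 20 other sterol genes (synthesis, uptake and export), 17 were found and tested. At an unadjusted limma p under 0.05, 0 were higher and 0 lower in SF/SCL cows, against 4.19% and 4.48% of all genes. DESeq2 and edgeR with 6 cows each gave 0 of these sterol genes an adjusted p under 0.05. Their median log2 fold change was 0.02. Without cow 489215, limma gave an adjusted p under 0.05 to 1 higher in SF/SCL cows and 0 lower, against 10.3% and 7.92% of all genes. The gene was ABCG1, a cholesterol exporter, named after its values were seen. ABCG1 had 7826, 5890 and 8491 normalized counts in cows 617, 79 and 527, and 19927, 1819 and 20550 in cows 856, 489215 and 97. Cow 489215 was the lowest of the 6 and cows 856 and 97 the highest, with a log2 fold change of 0.31 (SE 0.93, limma adjusted p 0.951) and of 1.47 without cow 489215 (SE 0.16, limma adjusted p 0.00364).

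Of 28 other fatty acid genes, 28 were found and 27 tested, with a median log2 fold change of 0.01. At an unadjusted limma p under 0.05, 2 were higher in SF/SCL cows and 0 lower, against 4.19% and 4.48% of all genes. CPT1B, which moves fatty acids into mitochondria for breakdown, had 944, 715 and 631 in cows 617, 79 and 527, and 2898, 1049 and 2721 in cows 856, 489215 and 97 (log2 fold change 1.43, SE 0.42, limma p 0.0135, adjusted p 0.433). FADS6, a desaturase family member, had 40.8, 20.7 and 14.9 in LF/LCL cows and 98.8, 62.6 and 99.7 in cows 856, 489215 and 97 (log2 fold change 1.82, SE 0.48, limma p 0.0077, adjusted p 0.405). Both had non-overlapping groups. DESeq2 with 6 cows gave CPT1B an adjusted p of 0.0291 and FADS6 one of 0.0241. Without cow 489215, the median over these genes was -0.19, and limma gave an adjusted p under 0.05 to 4 higher in SF/SCL cows and 0 lower, against 10.3% and 7.92% of all genes. They were CPT1B, FADS6, HACD2, a dehydratase of fatty acid elongation, and CPT1A, a relative of CPT1B, the latter 2 named after their values were seen. HACD2 went from 0.64 with 6 cows to 0.99 without cow 489215 on the log2 scale, and CPT1A from -0.12 to 0.63. Direction over all 27 was mixed, with 14 log2 fold changes above 0 and 13 below with 6 cows, and 11 and 16 without cow 489215. No contrast of these genes with the fatty acid members was tested.

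Markers of other cells that make or store much lipid were also read. Of the adipocyte markers 4 of 6 were found, ADIPOQ at 2.17 to 15.8 normalized counts and CIDEC at 0 in 4 of the 6 cows. Their sum was 1510 to 2249 in LF/LCL cows and 470 to 1062 in SF/SCL cows, nearly all of it PLIN4. PLIN4, a lipid droplet coat protein, had 1487 to 2232 in LF/LCL and 395 to 1056 in SF/SCL cows without overlap, lower in SF/SCL cows as were FASN, FADS1, ACSL3 and ACSL4 (log2 fold change -1.29, SE 0.40, limma p 0.0164, adjusted p 0.448). The other adipocyte markers, all near the floor, did not move together with PLIN4. FABP4 had 4.19, 13.1 and 1.76 in cows 617, 79 and 527, and 6.08, 59.9 and 3.25 in cows 856, 489215 and 97. It was thus highest in the cow with the least PLIN4. ADIPOQ had a lower SF/SCL mean with overlapping groups, and CIDEC was above 0 only in cows 856 and 97. The part of fat cells in FASN, FADS1, ACSL3 and ACSL4 was not tested. The steroidogenic ovarian markers (5 of 6 found) summed to 247 to 365 in LF/LCL cows and 242 to 457 in SF/SCL cows, with CYP19A1 at 0 in 5 cows.

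Erythrocyte markers (3 of 4 found) summed to at most 7 in any cow. Fibroblast markers (4 of 4 found) summed to 73456 to 96594 in LF/LCL and 44689 to 69706 in SF/SCL cows, without overlap. LUM and PDGFRB had no overlap either, but DCN, most of that sum, and PDGFRA overlapped. DCN was 58982 in cow 489215, inside the LF/LCL range of 54810 to 75090. Endothelial markers (3 of 4 found) summed to 8397 to 11252 in LF/LCL and 7309 to 7916 in SF/SCL cows. Of these CDH5 had no overlap, while VWF and KDR overlapped. Leukocyte markers (4 of 4 found) overlapped, at 1705 to 2793 and 1490 to 2565. Mesothelial markers (4 of 4 found) were 2451 to 3313 in LF/LCL cows, 26242 and 26725 in cows 856 and 97, and 3483 in cow 489215. That sum was mostly MSLN and WT1, while LRRN4 went the other way without overlap (175 to 412 in LF/LCL and 3.8 to 16.3 in SF/SCL cows) and UPK3B overlapped.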

How the data were processed

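Isthmus RNA of 6 cows was sequenced as polyA-selected, paired-end libraries, 1 per cow. Per the methods and the labels, the authors cleaned the reads (seqyClean), mapped them with TopHat2 2.0.8 and Bowtie2 2.1.0 on masked bovine assembly UMD3.1, counted them per Ensembl gene with HTSeq 0.5.4p2 and divided by the size factor of DESeq 1.12.1. The deposited signal values are these normalized counts, unfiltered. Whether counting used strand is not given in the sources used here, so reads of antisense partners cannot be told apart. Genomic positions are not reported here.

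Values of each library were whole multiples of 1 step (100.0% of 147696 values within 0.1 of a whole read), which gave the reads back. The 15387 genes whose mean exceeded both 5 and their SD were tested with limma 3.58.1 in R 4.3.3 (trend, robust) on log2(value + 1), no covariates, two-sided, Benjamini-Hochberg over all of them. The recovered reads also went into edgeR 4.0.16 and DESeq2 1.42.0, beside other scalings, filters, pseudocounts and each cow left out. Code was tested on simulated data. Other steps used Python 3.11.15, pandas 2.3.3, numpy 2.4.6 and matplotlib 3.10.9.

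Members and lists were chosen with earlier results of these data known. Each cow's values are given for members with an unadjusted p under 0.05, for those with an adjusted p under 0.05 without cow 489215, and for SREBF1, SREBF2, SCAP, INSIG1, HMGCS1, SQLE, ACACA, FASN and SCD. Other members are given by range and counts. Of the other pathway genes, those with an unadjusted p under 0.05 are named. Results for 1 other sterol gene are not reported here. The p-values set the difference between the groups against the spread between cows within a group. As the cows were picked by rank, this spread may not be that of cows in general.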

Additional observations from a re-analysis of the deposited data

How the results depend on the processing

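The medians of both gene groups kept their sign under every alternative, from 0.033 (array weights) to 0.31 for sterol genes and from -0.73 to -0.33 for fatty acid genes, and no scaling moved the median of all genes by over 0.1. Of 33 genes (31 members and 2 older symbols), 19 kept their direction in all 18 alternatives and 14 did not. The counts past an adjusted p of 0.05 did change. DESeq2 called 416 of 15387 genes in all and 1 of 11 fatty acid genes. Array weights, whose estimation stopped before it converged, gave cow 489215 a weight of 0.0477. They called 4581 of 15387 genes, 6 of 20 sterol and 6 of 11 fatty acid genes, with 7 and 6 at an unadjusted p under 0.05. For the alternatives, the share of all genes at an unadjusted p was not computed. With 1 cow left out, the calls ran from 0 to 2827 genes (the latter of 15495), 0 to 3 of 20 sterol and 0 to 3 of 11 fatty acid genes. At an unadjusted p under 0.05 they ran from 0 to 7 sterol and from 1 to 5 fatty acid genes, in either direction. The highest counts were always without cow 489215. The 2 alternatives chosen after seeing the data left that cow out and changed the test. edgeR then called 2805 of 15495 genes, 4 of 20 sterol and 3 of 11 fatty acid genes (7 and 5 at an unadjusted p under 0.05). DESeq2 called 3938 of 15495 genes, 5 sterol and 5 fatty acid genes (7 and 6).

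Some differences changed sign, most of them small, and SCD (-0.998 with 6 cows) did so without cow 489215. Under array weights the log2 fold changes were ACAT2 -0.22, MVD -0.15, IDI1 -0.0042, FDPS -0.49, NSDHL -0.018, EBP -0.22, SREBF2 0.23 and FADS2 -0.14. Upper-quartile scaling gave FDPS -0.0011 and SCAP -0.015, and edgeR gave FADS2 -0.016. Without cow 489215, edgeR gave ACAT2 -0.14, MVD -0.060, FDPS -0.30, LSS 0.015, EBP -0.24, SREBF2 0.29 and FADS2 -0.038. DESeq2 without it gave ACAT2 -0.15, MVD -0.064, FDPS -0.30, LSS 0.012, EBP -0.24, SREBF2 0.28 and FADS2 -0.042. With 1 cow left out in limma, ACAT2 ran from -0.16 to 0.18, MVD from -0.057 to 0.31, FDPS from -0.29 to 0.32, LSS from -0.24 to 0.14, EBP from -0.23 to 0.39, DHCR7 from -0.060 to 0.42, SREBF2 from -0.42 to 0.29, SCAP from -0.0011 to 0.065, ACLY from -0.19 to 0.089, SCD from -1.58 to 0.017, ELOVL5 from -0.52 to 0.076 and FADS2 from -0.24 to 0.23. The cause of these changes was not tested. With 3 cows a group, and 2 in SF/SCL without cow 489215, cow-to-cow spread limits these comparisons more than depth does.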
